A study of Homo sapiens with 16 samples.

Results

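The genes described here carry a peptide from a protein in the cell to the HLA class I molecule that presents it. They were taken from the count table by symbol, and all 10 symbols were present once among its 59428 genes: the peptide transporter subunits TAP1 and TAP2, tapasin (TAPBP), the immunoproteasome subunits PSMB8, PSMB9 and PSMB10, the proteasome activator subunits PSME1 and PSME2, and the trimming peptidases ERAP1 and ERAP2. The proteasome cuts proteins into peptides, the transporter moves them into the endoplasmic reticulum, the trimming peptidases shorten them there, and tapasin helps to load them onto class I molecules. Interferons are known to induce the immunoproteasome subunits, which replace the catalytic subunits of the standard proteasome, and most of the other genes as well. The pathway is studied in tumors because cells that lose it become hard for cytotoxic T cells to see.

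RNA was measured in 2 serous ovarian carcinoma cell lines, OVCAR3, which has an intact BRCA1 gene, and UWB1.289, in which BRCA1 is mutated. Each was kept for 96 h with the PARP inhibitor olaparib, at 7.5 µM for OVCAR3 and 3.5 µM for UWB1.289, or with the solvent DMSO, and 4 libraries were made for each of the 4 groups. The study asked how the drug changes expression with and without functional BRCA1. Each BRCA1 status is represented by 1 line and the culture media differed, so that in any difference between them the drug dose, the medium, BRCA1 and the rest of the genetic background cannot be told apart. The libraries hold between 5599571 and 7730228 counts. They were primed at the 3′ ends of transcripts, and a level is compared below between groups for the same gene, not between genes. Levels are given as normalized counts, the counts scaled to a common library size. A gene passed the test at an edgeR adjusted p below 0.1.

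In GRCh38, 5 of the 10 genes lie in the HLA region of chromosome 6. TAP2 (chr6:32821833-32838739), PSMB8 (chr6:32840717-32844679) and TAP1 (chr6:32845209-32853816) follow each other on the minus strand, PSMB9 (chr6:32844136-32859851) lies over TAP1 on the plus strand, and TAPBP (chr6:33299694-33314284) is also on the minus strand. The activator genes PSME1 (chr14:24136163-24138967, plus strand) and PSME2 (chr14:24143362-24147570, minus strand) are neighbors, as are ERAP1 (chr5:96760810-96808100, minus strand) and ERAP2 (chr5:96875986-96919703, plus strand). PSMB10 is at chr16:67934506-67936864 on the minus strand. All are protein-coding.

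The promoters share a sequence that the choice of genes did not use. Interferon-regulated promoters are known for the interferon-stimulated response element (ISRE), whose core was searched as GAAANNGAAA on both strands in the 250 bases before and 50 bases after each RefSeq start (GRCh38.p14). A match was present for 9 of the 10 genes, PSMB9 being the exception, against 3.57% of all 35116 windows and 3.72% of the 10591 tested genes with a window. The window of PSMB9 overlaps at its edge with that of TAP1, which runs the other way. The cores counted for TAP1 lie outside the window of PSMB9. Sequence beyond that window was not searched for PSMB9, so a core farther from its start would be missed. Where several windows are listed for a gene (ERAP1, ERAP2, PSMB8 and TAP1 have 2 each), a match in either was counted. The following stretches are read 5′ to 3′ on the strand of the gene, with the ISRE core or its reverse complement in capitals. They are shown for only some of the genes with the core, among them every such gene that passed with olaparib in both lines. The choice therefore cannot show how the core goes with a response. TAP1, TAP2, TAPBP and PSME2 passed the test with olaparib in both lines. PSMB10 was hardly counted, and ERAP2 did not pass in OVCAR3 and had too few counts for a test in UWB1.289. Among genes with the core whose stretches are not shown, PSMB8 passed in UWB1.289 only. PSME1 and ERAP1 passed in neither line, although PSME1 was well counted, with group means between 1352 and 1554 normalized counts.
TAP1, chr6:32853793-32853868, strand minus: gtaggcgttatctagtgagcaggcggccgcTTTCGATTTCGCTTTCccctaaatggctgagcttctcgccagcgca
TAP2, chr6:32838758-32838827, strand minus: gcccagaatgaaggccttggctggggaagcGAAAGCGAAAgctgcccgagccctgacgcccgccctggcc
TAPBP, chr6:33314053-33314128, strand minus: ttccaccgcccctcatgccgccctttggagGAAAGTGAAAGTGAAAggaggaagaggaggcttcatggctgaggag
PSMB10, chr16:67936832-67936901, strand minus: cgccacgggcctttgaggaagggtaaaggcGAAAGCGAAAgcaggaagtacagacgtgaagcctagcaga
PSME2, chr14:24146599-24146668, strand minus: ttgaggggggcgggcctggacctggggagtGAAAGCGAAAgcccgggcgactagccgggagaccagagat
ERAP2, chr5:96876440-96876509, strand plus: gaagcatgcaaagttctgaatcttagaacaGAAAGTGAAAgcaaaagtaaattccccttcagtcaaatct
In TAP1 and TAPBP the capitals cover 2 overlapping cores. A kB site, written GGGNNTTTCC and bound by NF-kB factors, was found in the windows of TAP1 and TAPBP. It was present in 1.91% of all windows and for 2.93% of the tested genes with a window. The core of the gamma-activated site (GAS), written TTCNNNGAA, was found for PSMB8 and TAP1, against 7.66% of all windows and 8.51% of the tested genes with a window. None of the 3 motifs was found within the window of PSMB9. These matches describe letters only, and whether a factor binds was not measured.

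**Figure D1:**
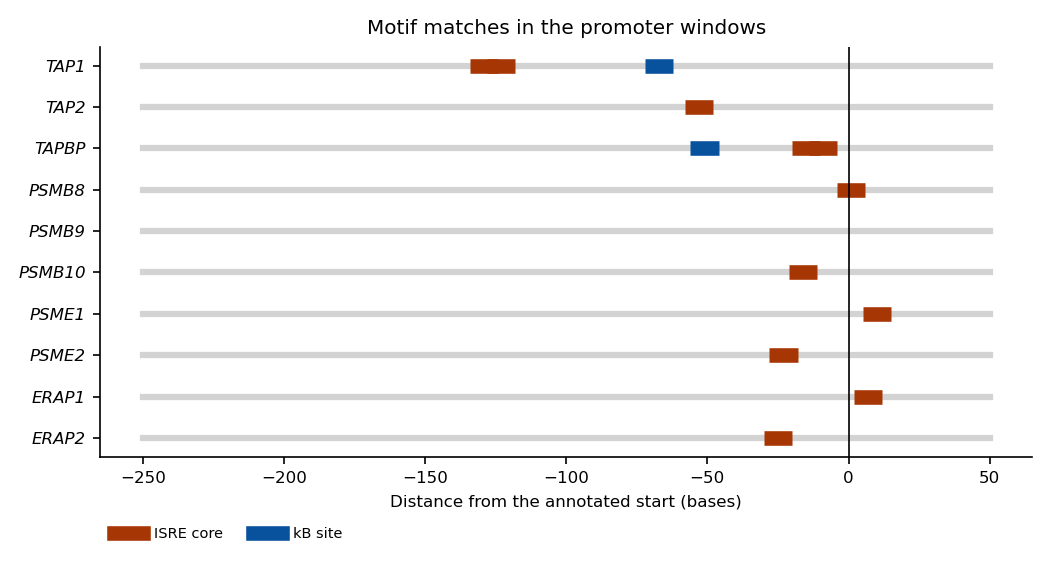
Position of ISRE core matches (brown) and kB site matches (blue) in the promoter windows of the 10 genes, as distance in bases from the annotated start (vertical line), with upstream to the left; where a gene has 2 windows, matches of both are drawn on 1 line. The ISRE cores lie near the start in 8 genes and farther upstream in TAP1, and the window of PSMB9 holds none.

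Much of the pathway rose with olaparib in both lines. None of its tested genes was lower past the test with edgeR or DESeq2 in either line, and 0 were lower at an unadjusted edgeR p below 0.05. In UWB1.289, TAP1, TAP2, TAPBP, PSMB8, PSMB9 and PSME2 rose, which is 6 of the 8 genes with enough counts to be tested, and TAP1 and PSMB9 rose by more than 2-fold. Among all 12748 genes tested there, 7.77% were called higher, 6.1% lower and 2.21% more than 2-fold changed in either direction. In OVCAR3, TAP1, TAP2, TAPBP, PSMB9 and PSME2 rose, 5 of 9 tested, none of them by more than 2-fold, where 15.5% of all 13031 genes were called higher, 16% lower and 5.22% more than 2-fold changed. The median log2 fold change of the tested genes of the pathway was 0.52 in UWB1.289 and 0.41 in OVCAR3, beside -0.00 and -0.01 over all genes. In both lines the genes past the test were transporter, tapasin, immunoproteasome and activator genes. ERAP1 did not pass in either line, and ERAP2 did not pass in OVCAR3 and had too few counts to be tested in UWB1.289. As these are bulk libraries, more cells with the transcript and more transcript per cell cannot be told apart.

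**Figure D2:**
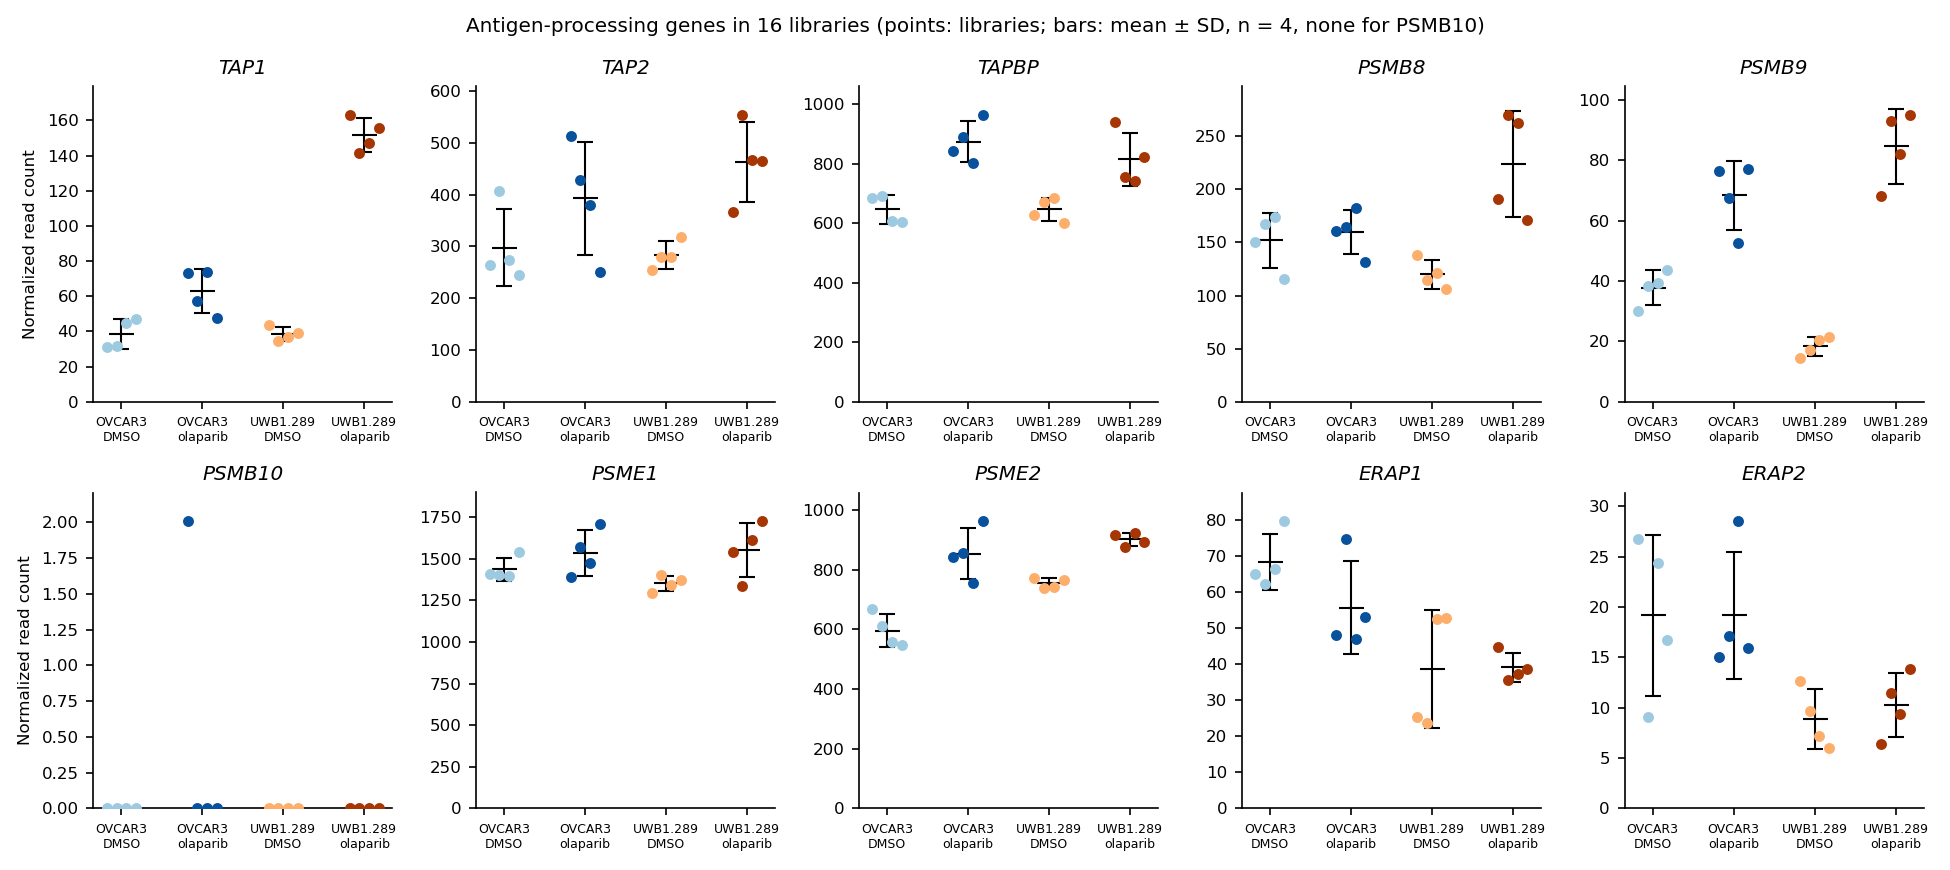
Normalized read counts (linear axis from 0) of the 10 genes by group; points are libraries in the order of their replicate numbers and bars give the mean ± SD of 4 libraries, except for PSMB10. In UWB1.289 all 4 olaparib libraries lie above all DMSO libraries for TAP1, TAP2, TAPBP, PSMB8, PSMB9 and PSME2.

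TAP1 encodes a subunit of the transporter that pumps peptides into the endoplasmic reticulum. In UWB1.289 its normalized counts were 43.8, 34.5, 37.1 and 39.2 with DMSO and 163, 141, 147 and 155 with olaparib, without overlap between the groups. In OVCAR3 they were 31.0, 31.7, 44.9 and 47.2 with DMSO and 73.3, 57.5, 73.6 and 47.8 with olaparib, where the lowest olaparib library was just above the highest control. The gene rose 3.91-fold in UWB1.289 (log2 change of 1.97 with SE 0.151, edgeR adjusted p = 2.76e-09) and 1.62-fold in OVCAR3 (0.69 with SE 0.212, edgeR adjusted p = 0.0216). Both lines started from the same level, 38.7 ± 3.94 in UWB1.289 and 38.7 ± 8.58 in OVCAR3 (SD, n = 4), so that the groups ordered as both DMSO groups together, then OVCAR3 with olaparib, then UWB1.289 with olaparib. The last 300 exonic bases of TAP1 lie opposite PSMB8-AS1, for which 71 counts were listed in all libraries together.

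TAP2 is the partner subunit and its change was smaller. With DMSO its normalized counts were 255, 279, 280.4 and 319 in UWB1.289, and with olaparib they were 366, 554, 466 and 464. Every treated library exceeded every control library, and the gene rose 1.63-fold (log2 change of 0.71 with SE 0.116, edgeR adjusted p = 0.00025). In OVCAR3 the counts were 265, 407, 273 and 245 with DMSO and 512, 428, 381 and 251 with olaparib, and the groups overlapped. The increase there, 1.33-fold, passed narrowly (log2 change of 0.41 with SE 0.172, edgeR adjusted p = 0.0925). With DESeq2 the log2 change was the same, 0.41, and did not pass (adjusted p = 0.319). Leaving out any of DMSO replicates 1, 3 and 4 or olaparib replicates 1, 2 and 3 also ended the call (edgeR adjusted p between 0.101 and 0.335). Over all single libraries left out the log2 change ranged from 0.25, without olaparib replicate 1, to 0.59, without DMSO replicate 2, so that the call and its size in OVCAR3 depend on the choice of libraries.

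Tapasin bridges the transporter and the class I molecule. TAPBP had normalized counts of 685, 691, 606 and 604 with DMSO and 842, 889, 801 and 964 with olaparib in OVCAR3, a separation of the groups by more than their spread. In UWB1.289 the values were 627, 672, 684 and 600.3 with DMSO and 939, 755, 743 and 821 with olaparib, again without overlap. Unlike TAP1, TAPBP rose to a like extent in both lines, 1.36-fold in OVCAR3 (log2 change of 0.44 with SE 0.0834, edgeR adjusted p = 0.000566) and 1.26-fold in UWB1.289 (0.34 with SE 0.0900, edgeR adjusted p = 0.0194). The difference between these effects was -0.10 on the log2 scale, with a 95% interval from -0.36 to 0.15.

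PSMB9 (LMP2) is the immunoproteasome subunit that takes the place of PSMB6. Its normalized counts in UWB1.289 were 14.6, 17.2, 20.6 and 21.3 with DMSO and 68.3, 93.1, 81.9 and 95.02 with olaparib, the largest fold change among the 8 genes tested. In OVCAR3 they were 29.9, 38.4, 39.3 and 43.5 with DMSO and 76.3, 67.5, 52.4 and 77.0 with olaparib. The groups were separate in both lines. PSMB9 rose 4.55-fold in UWB1.289 (log2 change of 2.19 with SE 0.214, edgeR adjusted p = 1.55e-07) and 1.80-fold in OVCAR3 (0.85 with SE 0.197, edgeR adjusted p = 0.00327). The treated groups of both lines overlapped with each other, while the control group of UWB1.289 lay below that of OVCAR3. These levels rest on few reads, between 15 and 25 raw counts per control library of UWB1.289.

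PSMB8 (LMP7) takes the place of PSMB5, and it passed the test in UWB1.289 and not in OVCAR3. Its normalized counts in UWB1.289 were 138, 114, 122 and 106 with DMSO and 191, 270.1, 262 and 171 with olaparib, without overlap, and it rose 1.86-fold (log2 change of 0.90 with SE 0.149, edgeR adjusted p = 0.000284). In OVCAR3 the values were 151, 167, 174 and 116 with DMSO and 161, 164, 182 and 132 with olaparib, 2 groups that covered the same range. The log2 fold change there was 0.08 (95% interval -0.22 to 0.37, edgeR adjusted p = 0.744), so that an increase of the size seen in UWB1.289 lay outside the interval.

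PSMB10 (MECL-1), the third immunoproteasome subunit, was hardly counted. It had 2 counts in OVCAR3 olaparib replicate 1 and 0 in the other 15 libraries, and it entered no test. A count of 0 allows up to 3 counts in a library, which is between 2.56 and 3.45 normalized counts here and covers counting error only. All of the last 300 exonic bases of PSMB10 also belong to a gene model on the same strand (ENSG00000261884), and how reads shared by several genes were counted is not given in the sources used here. Its level cannot be read from this table.

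The induced and the standard subunit share a place in the core particle, and their ratio within a library was taken as log2 of CPM + 1. PSMB8 relative to PSMB5 in UWB1.289 was -3.44, -3.76, -3.66 and -3.76 with DMSO and -3.00, -2.43, -2.57 and -3.11 with olaparib. This is a shift of 0.88 toward the induced subunit (exact permutation p = 0.0286, adjusted p = 0.0429 over 9 tests, where 4 against 4 libraries cannot give less than 0.0286). For PSMB9 relative to PSMB6 the log2 ratio in UWB1.289 went from -6.65 ± 0.212 to -4.60 ± 0.293 (SD, n = 4), a difference of 2.05 with the same exact permutation p of 0.0286. In OVCAR3 it went from -4.43 ± 0.211 to -3.53 ± 0.242, a difference of 0.90 (exact permutation p = 0.0286, adjusted p = 0.0429). PSMB8 relative to PSMB5 differed by 0.04 in OVCAR3 (exact permutation p = 0.857), less than the spread of either group. With same-numbered replicates of UWB1.289 compared as pairs, an exact permutation test over 4 pairs cannot go below 0.125, and its ratios then did not pass. PSMB5, PSMB6 and PSMB7, the standard catalytic subunits, did not pass the edgeR test with olaparib in either line, with log2 fold changes between -0.18 and 0.17, beside 0.90 for PSMB8 and 2.19 for PSMB9 in UWB1.289. The ratio of PSMB10 to PSMB7 holds no reading of PSMB10, which lies at the floor.

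**Figure D3:**
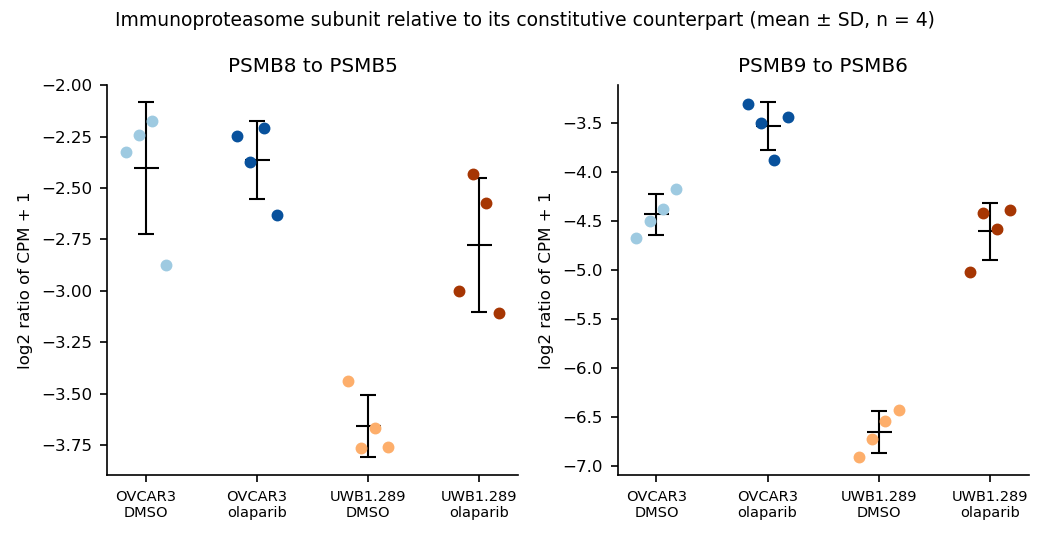
Log2 ratio (CPM + 1) of PSMB8 to PSMB5 and of PSMB9 to PSMB6 in each library, by group, with mean ± SD of 4 libraries. In UWB1.289 all olaparib libraries lie above all DMSO libraries for both ratios, and in OVCAR3 for PSMB9 to PSMB6.

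PSME1 and PSME2 form the PA28 activator, a ring that docks on the core particle. PSME2 passed the test in both lines and PSME1 in neither, and the difference between these genes was not tested. PSME2 had normalized counts of 667, 612, 557 and 547 with DMSO and 842, 858, 756 and 963 with olaparib in OVCAR3. In UWB1.289 it had 774, 738, 741 and 766 with DMSO and 918, 877, 922 and 893 with olaparib. Neither pair of groups overlapped. The gene rose 1.44-fold in OVCAR3 (log2 change of 0.53 with SE 0.0901, edgeR adjusted p = 0.000211) and 1.197-fold in UWB1.289 (0.26 with SE 0.0768, edgeR adjusted p = 0.0352), although without the filter on low counts the latter missed the threshold (edgeR adjusted p = 0.115). The normalized counts of PSME1 were 1409.7, 1403, 1394 and 1541 with DMSO and 1387, 1572, 1475 and 1706 with olaparib in OVCAR3, which overlap (log2 change of 0.10 with SE 0.0775, edgeR adjusted p = 0.388). In UWB1.289 they were 1296, 1401, 1342 and 1370.4 with DMSO and 1540.3, 1337, 1613 and 1725 with olaparib, with olaparib replicate 2 alone among the controls (log2 change of 0.20 with SE 0.0830, edgeR adjusted p = 0.138). PSME1 passed in UWB1.289 when the replicate number was kept as a block (log2 fold change 0.20, edgeR adjusted p = 0.0809) and when olaparib replicate 2 was left out (0.27, edgeR adjusted p = 0.0327).

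ERAP1 and ERAP2 trim peptides in the endoplasmic reticulum, and no response to olaparib was detectable for them. ERAP1 had normalized counts of 65.1, 62.2, 66.4 and 79.7 with DMSO and 48.2, 74.6, 46.9 and 53.1 with olaparib in OVCAR3, where 3 of the 4 treated libraries were below all controls and olaparib replicate 2 was among the controls. Its log2 fold change was -0.30 (95% interval -0.69 to 0.09, edgeR adjusted p = 0.268), and it reached -0.46 (edgeR adjusted p = 0.0982) without that library. In UWB1.289 the values were 25.3, 23.7, 52.6 and 52.9 with DMSO and 44.8, 35.6, 37.3 and 38.6 with olaparib, so that the control libraries fell apart into 2 low and 2 high ones around the treated group (log2 fold change 0.01, 95% interval -0.53 to 0.55, edgeR adjusted p = 0.989). Of the last 300 exonic bases of ERAP1, 200 lie opposite CAST, which had 29550 counts in all libraries together, and whether the counting used strand is not given in the sources used here. ERAP2 was low throughout, with 26.7, 9.05, 24.3 and 16.7 normalized counts with DMSO and 15.1, 17.1, 28.5 and 15.9 with olaparib in OVCAR3 (log2 fold change -0.00, 95% interval -0.72 to 0.71, edgeR adjusted p = 0.996). In UWB1.289 it had 12.7, 9.70, 7.22 and 5.97 with DMSO and 6.40, 11.5, 9.33 and 13.9 with olaparib.

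**Figure D4:**
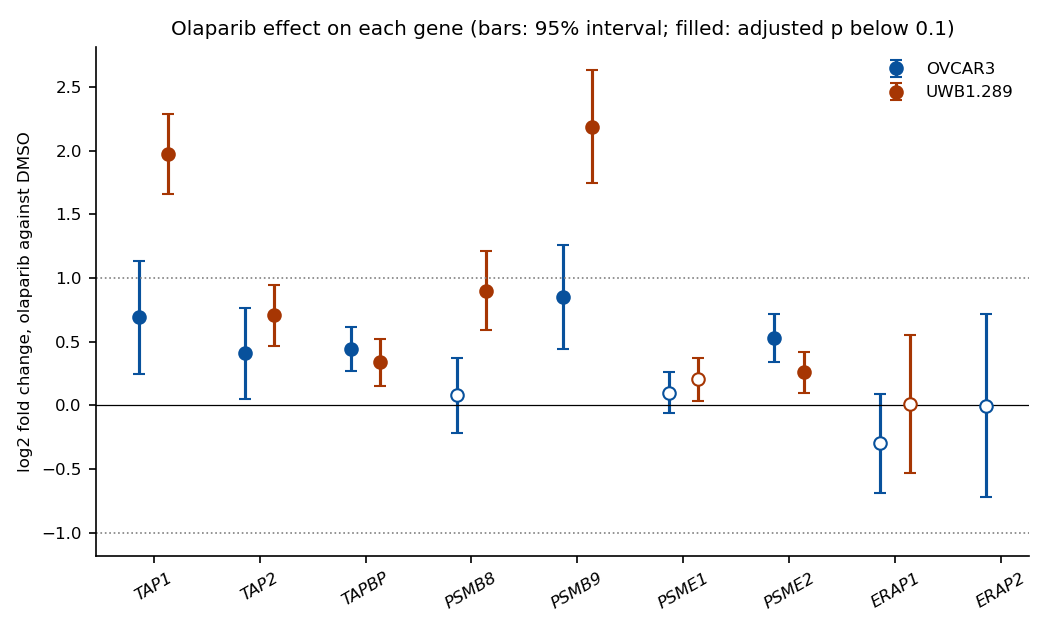
Log2 fold change of olaparib against DMSO for the 9 genes with a test, in OVCAR3 (blue) and UWB1.289 (brown), with 95% intervals; filled points passed at an edgeR adjusted p below 0.1 and dotted lines mark a 2-fold change. TAP1 and PSMB9 in UWB1.289 lie beyond 2-fold, and the intervals of PSMB8 in both lines do not overlap.

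The effect of olaparib differed between the lines for 3 of the 9 genes tested over all 16 libraries, each larger in UWB1.289. The difference of the log2 fold changes was 1.34 ± 0.289 SE for PSMB9 (edgeR adjusted p = 0.00308), 1.28 ± 0.256 SE for TAP1 (edgeR adjusted p = 0.00143) and 0.82 ± 0.215 SE for PSMB8 (edgeR adjusted p = 0.0150). For PSMB9 and TAP1 it was also more than 2-fold. Among all 14243 genes, 5.1% had a larger and 5.83% a smaller effect in UWB1.289, and 3.66% differed by more than 2-fold. TAP1, PSMB8 and PSMB9 are adjacent in the HLA region, whereas TAP2 next to them differed by 0.30 (edgeR adjusted p = 0.498). PSME2 leaned the other way, with -0.26 ± 0.117 SE (edgeR adjusted p = 0.184). The remaining differences were between -0.10 and 0.31 and did not pass. The dose differed as well, 7.5 µM for OVCAR3 and 3.5 µM for UWB1.289, and its part in these differences was not tested.

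With DMSO alone, 4 of 9 tested genes (PSMB9, PSMB8, ERAP1 and ERAP2) were lower in UWB1.289 than in OVCAR3 and 1 (PSME2) was higher. Among all 13366 genes 40.1% were lower and 39.8% higher, so that the count of lower genes was near the share over all genes. PSMB9 was at 18.4 ± 3.12 against 37.8 ± 5.71 normalized counts (SD, n = 4; log2 change of -1.03 with SE 0.264, edgeR adjusted p = 0.000826). The peptidases were at 38.6 ± 16.3 against 68.4 ± 7.75 for ERAP1 (-0.82 with SE 0.229, edgeR adjusted p = 0.00208) and 8.88 ± 2.95 against 19.2 ± 8.0 for ERAP2 (-1.12 with SE 0.383, edgeR adjusted p = 0.0094). For PSMB9 and ERAP1 all UWB1.289 libraries were below all OVCAR3 libraries, whereas those of ERAP2 overlapped. PSMB8 was at 120.0 ± 13.8 against 152 ± 26.0 (-0.34 with SE 0.141, edgeR adjusted p = 0.0296), with overlap, and it no longer passed without UWB1.289 DMSO replicate 4 (edgeR adjusted p = 0.119) or OVCAR3 DMSO replicate 3 (edgeR adjusted p = 0.113). PSME2 was at 755 ± 17.8 against 596 ± 55.6 (0.34 with SE 0.0795, edgeR adjusted p = 0.000319). Only PSMB9 and ERAP2 differed by more than 2-fold, as did 38.3% of all genes, and this count was 1 when any of UWB1.289 DMSO replicates 1 and 2 or OVCAR3 DMSO replicates 1, 3 and 4 was left out. TAP1, TAP2, TAPBP and PSME1 did not pass, with log2 fold changes between -0.09 and -0.00. Relative to the standard subunits the lines differed more, since PSMB5 and PSMB6 were higher in UWB1.289. UWB1.289 minus OVCAR3, the log2 ratio of PSMB8 to PSMB5 differed by -1.25 and that of PSMB9 to PSMB6 by -2.22 (exact permutation p = 0.0286 for both).

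The other genes of antigen processing and presentation were counted by list, beside the 15.5% of all genes called higher and 16% lower in OVCAR3 and the 7.77% higher and 6.1% lower in UWB1.289. Of 32 tested subunits of the standard proteasome (3 catalytic, 10 other core and 19 regulatory-particle subunits), 10 rose with olaparib in OVCAR3, none of them catalytic, and 0 fell, with a median log2 fold change of 0.17. In UWB1.289 0 rose and 3 fell, with a median of -0.05. No fall in OVCAR3 and no rise in UWB1.289 was seen at an unadjusted p below 0.05 or with DESeq2 either, although DESeq2 also called PSMB7 higher in OVCAR3 (adjusted p = 0.0807) and PSMB6 lower in UWB1.289 (adjusted p = 0.0715). Those with the largest change past the test were PSMB3 (0.42, edgeR adjusted p = 0.0122), a core subunit, and ADRM1 (0.34, edgeR adjusted p = 0.00224), a ubiquitin receptor, in OVCAR3, and PSMB1 (-0.25, edgeR adjusted p = 0.0738) and PSMD1 (-0.28, edgeR adjusted p = 0.0170) in UWB1.289. Of 9 other activators, assembly factors and inhibitors, 4 rose in OVCAR3, most of all the activator PSME4 (0.33, edgeR adjusted p = 0.00288), and 0 passed in UWB1.289 in either direction, where none had an unadjusted edgeR p below 0.05 or was called by DESeq2. The 5 loading chaperones held 1 gene that fell in OVCAR3, the disulfide isomerase PDIA3 (-0.20, edgeR adjusted p = 0.0718), and 0 that passed in UWB1.289, where 0 had an unadjusted edgeR p below 0.05 and 0 were called by DESeq2. Of 7 other peptidases known to trim or destroy antigenic peptides, 1 rose and 1 fell in each line. The largest changes were those of THOP1 (0.34, edgeR adjusted p = 0.0527) in OVCAR3 and of LAP3 (0.63, edgeR adjusted p = 0.00215), a leucine aminopeptidase, in UWB1.289.

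The class I chains, to which the peptides are delivered, rose throughout. All 5 tested in OVCAR3 and all 6 in UWB1.289 rose, with medians of 0.66 and 0.72. HLA-B had log2 fold changes of 1.49 in OVCAR3 (edgeR adjusted p = 1.17e-08) and 1.36 in UWB1.289 (edgeR adjusted p = 1.98e-10), and HLA-F rose by 1.18 in UWB1.289 (edgeR adjusted p = 0.0487). HLA genes are alike in sequence, and the counting could have split reads between them. Unlike TAP1 and PSMB9, no class I gene had a larger effect in UWB1.289 past the edgeR test of the difference. HLA-C came closest (0.28, edgeR adjusted p = 0.111) and passed with DESeq2 (adjusted p = 0.0439), and it is named here after its values were seen. Of the transcription factors known to act on the pathway, 5 of 7 rose in OVCAR3 and 5 of 8 in UWB1.289. The interferon-responsive factor IRF1 had a larger effect in UWB1.289, as TAP1 and PSMB9 did. It rose by 0.72 in OVCAR3 (edgeR adjusted p = 6.35e-05) and 1.42 in UWB1.289 (edgeR adjusted p = 5.35e-08), and the difference of 0.70 passed (edgeR adjusted p = 0.00759). NLRC5, the class I transactivator, rose by 2.26 in UWB1.289 (edgeR adjusted p = 0.000164) and had too few counts for a test in OVCAR3. Its difference between the lines, 1.52 at an average of 11.8 normalized counts, did not pass (edgeR adjusted p = 0.168).

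**Figure D5:**
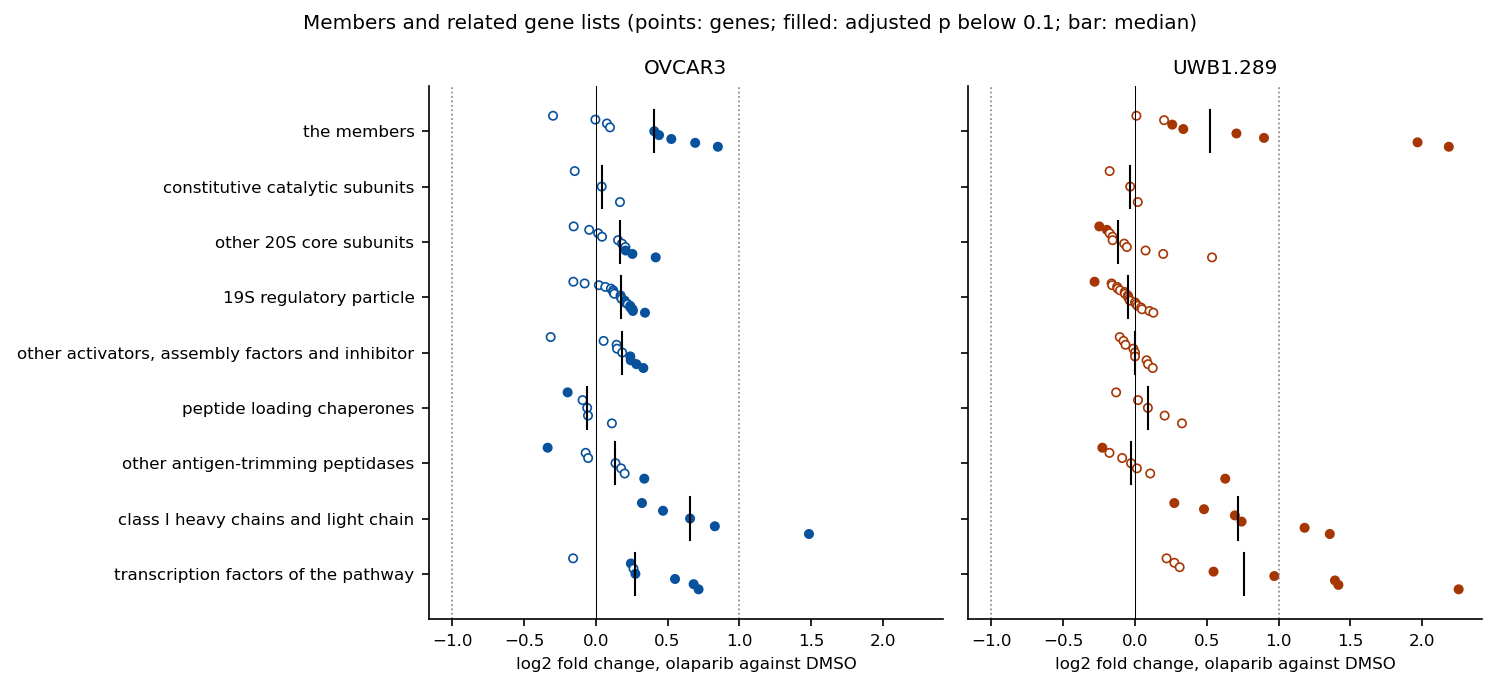
Log2 fold change of olaparib against DMSO for the genes described here ("the members") and the related lists in each line; points are genes, filled where the edgeR adjusted p was below 0.1, bars are list medians and dotted lines mark a 2-fold change. The standard proteasome lists stay within 1 on the log2 scale in both lines, while class I chains and transcription factors reach beyond it in at least 1 line.

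The genes whose levels over the 16 libraries were most like those of TAP1, PSMB9, PSME2 and ERAP1, 1 gene per role, were listed. The correlations are Pearson's r of log2 CPM, and the libraries share lines and treatments, so that they are given as a description. TAP1 was most like PLSCR1 (0.962), IFIT3 (0.959) and CXCL10 (0.952), and PSMB9 was most like NFKBIZ (0.950), PARP14 (0.945) and GBP5 (0.933). PSME2 was most like NFKBIE (0.946), RELB (0.942) and NAMPT (0.939), and ERAP1 was most like CLCN5 (0.888), PARP16 (0.885) and SNX25 (0.879). Among the genes themselves TAP1 and PSMB9 had 0.768 and TAP1 and PSMB8 0.745, whereas ERAP1 had -0.296 with TAP1.

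Markers were examined because immune cells carry high levels of this pathway. The epithelial list had 8 of 8 genes above 3 counts in every library of OVCAR3 and 7 of 8 in UWB1.289, in which WT1 was at 0 with DMSO. Its summed level was 4750.3 to 5054 CPM with DMSO and 2930 to 3339 with olaparib in OVCAR3, and 8057 to 8635 and 6403 to 7825 in UWB1.289. The sum was thus lower with olaparib without overlap in both lines. KRT18 had the highest counts of the list, in OVCAR3 9696 to 12613 raw counts with DMSO and 5160 to 7268 with olaparib. Not every gene followed the sum. In the same order KRT7 had 1966 to 2471 and 2423 to 3211 in OVCAR3, and MUC16 had 166 to 319 and 273 to 454 in UWB1.289. The summed level of 9 leukocyte markers was 1.92 to 2.89 CPM with DMSO and 1.99 to 4.03 with olaparib in OVCAR3, and 7.64 to 11.7 and 15.7 to 19.7 in UWB1.289. It thus moved with the treatment in UWB1.289, where PTPRC and CD14 were counted, while the B and NK cell markers MS4A1 and NKG7 were at 0 in every library and the T cell markers CD3D and CD3E had at most 1 count in any. Summed markers of professional antigen-presenting cells (7 genes, mostly CD74) were 27.9 to 29.5 CPM with DMSO and 50.9 to 59.5 with olaparib in OVCAR3, and 57.7 to 65.4 and 66.9 to 87.8 in UWB1.289, with CD86 at 0 in all and HLA-DRA at 0 in UWB1.289. The 6 fibroblast markers summed to 21.7 to 30.8 CPM with DMSO and 31.9 to 39.2 with olaparib in OVCAR3. In UWB1.289 they summed to 43.7 to 60.8 and 25.5 to 31.6. The sums did not overlap in either line and moved in opposite directions, but a different gene carried each. COL1A1 had 121 to 210 raw counts with DMSO and 222 to 268 with olaparib in OVCAR3, and 23 to 30 and 20 to 36 in UWB1.289. In the same order COL1A2 had 2 to 9 and 0 to 7, and 267 to 358 and 121 to 161. COL3A1 and LUM were at 0 in all libraries. The 4 endothelial markers summed to at most 11.5 CPM. The part of these markers in the results was not tested.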

How the data were processed

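RNA from 16 samples of OVCAR3 and UWB1.289 was sequenced as QuantSeq 3′ libraries. The deposited values are whole-number counts per gene symbol, made by the authors with STAR 2.7.9a (hg38) and featureCounts 2.0.0 and GENCODE release 38, not normalized. The 16 columns were grouped by their labels and none was left out. The 10 genes and all lists were chosen with earlier results of these data known. The test was the quasi-likelihood F test of edgeR 4.0.16 (R 4.3.3), with TMM factors and its filterByExpr filter, and p-values were adjusted by Benjamini-Hochberg over all genes tested. The fits took the 8 libraries of each line, the 8 DMSO libraries, or all 16 libraries for the difference of the effects. The limit for a 2-fold change also required an average normalized count above 10. Subunit ratios, log2 of (CPM + 1), were compared by two-sided exact permutation tests with adjustment over 9 tests. The tests were tried on simulated data. At 5599571 to 7730228 counts per library, a gene near 10 counts carries a large counting error. Alternatives were DESeq2 1.42.0, its size factors, no filter, another threshold or pseudocount, a fit to all 16 libraries, a block for the replicate number, and leaving out each library. Same-numbered DMSO and olaparib libraries of UWB1.289 deviated together (r between 0.136 and 0.225 over 9531 genes), while r was 0.0342 to 0.167 in OVCAR3 and -0.00203 to 0.0247 between the lines. The labels do not say that the numbers mark pairs. The reported fits have no block, and values with it are given beside a result where it changes a call. With the block 7 of the 8 genes passed in UWB1.289. The named genes are the 10 genes, PSMB5, PSMB6 and PSMB7, of each list those changed more than 2-fold past the test or else the largest change past it, and the 3 genes most correlated with TAP1, PSMB9, PSME2 and ERAP1. Results for some genes under this rule are not reported here. The study's labels number the replicates, and p-values measure the spread between these libraries. Coordinates are from GENCODE release 44 (GRCh38), and promoter sequences from RefSeq (GRCh38.p14), where all 10 genes matched by symbol.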

Additional observations from a re-analysis of the deposited data

Results flagged for a closer look

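In 4 of the 52 sets of 4 libraries examined, 1 library stood apart from the other 3 by Dixon's test. Chance does this in about 1 in 20 sets, a share that does not apply strictly here. Both flagged PSMB10 sets rest on the same 2 raw counts, and sets of PSMB10 counts at 0 throughout cannot be flagged. PSMB10 had 2.01 normalized counts in OVCAR3 olaparib replicate 1 and 0 in the other 3, and its log2 ratio to PSMB7 was -8.29 there against -8.71 to -8.69. PSME1 had 1541 normalized counts in OVCAR3 DMSO replicate 4 against 1394 to 1409.7. ERAP2 had 28.5 in OVCAR3 olaparib replicate 3 against 15.1 to 17.1.

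The effect of olaparib differed between UWB1.289 and OVCAR3 by the interaction test for PSMB8 (0.82 on the log2 scale, edgeR adjusted p = 0.0150), PSMB9 (1.34, edgeR adjusted p = 0.00308) and TAP1 (1.28, edgeR adjusted p = 0.00143). In these differences the dose, the medium, BRCA1 and the rest of the genetic background cannot be told apart.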

How the results depend on the processing

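The number of genes past the test was 4 to 5 in OVCAR3, 5 to 7 in UWB1.289, 4 to 5 between the lines and 3 for the difference of the effects over all alternatives run. Past the test and more than 2-fold there were 2 to 3 in UWB1.289 and 1 to 2 between the lines when single libraries were left out. With the replicate block the ratios kept their values but did not pass, since 4 pairs cannot give a p below 0.125: PSMB8 to PSMB5 at 0.88 in UWB1.289 and -1.25 between lines, PSMB9 to PSMB6 at 0.90 in OVCAR3, 2.05 in UWB1.289 and -2.22 between lines, and PSMB10 to PSMB7 at 0.57 between lines (adjusted p = 0.1875 by exact permutation for each). Apart from these ratios and PSME1 in UWB1.289, the replicate block changed no call of the 10 genes. The ratio of PSMB10 to PSMB7 in OVCAR3, which reads PSMB7 only, was -0.14 with a pseudocount of 5 and passed (adjusted exact permutation p = 0.0735), and it ranged from -0.17 to -0.0069 without single libraries. PSMB9 to PSMB6 in OVCAR3 ranged from 0.82 to 1.02 without single libraries, and did not pass without olaparib replicate 2, 3 or 4, where fewer libraries and tests left an adjusted exact permutation p of 0.171.

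Values near 0 that never passed changed sign. ERAP2 in OVCAR3 was 0.0072 with DESeq2, 0.0054 with its size factors, 0.0205 with the block and -0.25 to 0.18 without single libraries. PSMB8 in OVCAR3 was -0.038 to 0.16 and ERAP1 in UWB1.289 -0.16 to 0.21 without single libraries, the latter also -0.0075 with no filter. Between the lines TAP1 was 0.0042 with DESeq2, 0.0021 with its size factors, 0.0067 with no filter and -0.11 to 0.094 without single libraries, TAPBP was 0.0119, 0.0119, 0.0171 and -0.039 to 0.047 in the same order, and TAP2 was -0.15 to 0.11 without single libraries. The cause was not tested. Low counts limit ERAP2, which had too few for a test in UWB1.289.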
